A study of Mus musculus with 7 samples.

Results

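Tbx2, Tbx3, Tbx5, Tbx20, Tbx1 and Tbx18, transcription factors of the T-box family, were followed together with Isl1 and Shox2, homeodomain factors of pacemaker cells. They were chosen by symbol as factors of the sinoatrial node and the working heart, and all 8 were found among the 15965 genes with a value in both libraries. The tissue was the sinoatrial node, the pacemaker at the top of the right atrium, from Sv129 mice 3 weeks after birth, and poly-A RNA was sequenced. The Cre library came from mice with floxed Baf250a and Hcn4CreERT2 (genotype Baf250af/f;Hcn4CreERT2), 6 days after tamoxifen. The control library of the same day came from Baf250af/f mice without Cre, so both groups carried the floxed alleles, and the labels do not say whether the control mice received tamoxifen. Baf250a, with the gene symbol Arid1a, is a DNA-binding subunit of the BAF chromatin remodelling complex. Hcn4CreERT2 is a tamoxifen-activated recombinase made where the pacemaker channel gene Hcn4 is active, so deletion is limited to those cells within the dissected tissue. The series title asks about repression of the contractile programme directed by Nkx2-5. Each genotype had 1 library, so the differences below have no replicate check and the genotypes were not tested against each other. How many mice a library pooled is not in the labels.

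T-box factors bind a shared DNA motif through the T-box domain, and they compete for the same sites in heart muscle genes. Tbx5 and Tbx20 work with Nkx2-5 and Gata4 to switch on genes of working muscle such as those for atrial peptides and gap junctions, although Tbx20 can also repress. Tbx2 and Tbx3 occupy the same sites as repressors, and Tbx3 keeps the sinoatrial node from taking on a working-muscle programme. Shox2 restrains Nkx2-5 in the forming node, and Isl1, a LIM-homeodomain factor, activates node genes.

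Values are FPKM, that is, fragments counted per kilobase of transcript and per 1000000 fragments mapped, and the read depth behind them is unknown. Log2 ratios are Cre over control after adding 1 to each FPKM, so differences of weak genes are understated, and a ratio of 2-fold or more was needed to count a gene as higher or lower. Arid1a had 12.3 FPKM in the Cre library and 34.9 FPKM in the control library, a value that includes exons outside the floxed part. The control library held thymus transcripts and the Cre library more lung transcripts. All 17 listed T cell genes, among them Rag1, were lower, with summed levels of 9.39 FPKM in the Cre library and 3103 FPKM in the control library. Of 12 lung and airway genes 11 were higher, with sums of 18658 FPKM in the Cre library and 4200 FPKM in the control library, and none of either list was at 0 in either library. Xist had 93.2 FPKM in the Cre library and 0.379 FPKM in the control library, and Y-linked Ddx3y had 0.0739 FPKM in the Cre library and 43.4 FPKM in the control library, so sex and genotype cannot be told apart. Fewer cells of a type and less RNA per cell cannot be told apart in bulk tissue either. The part of thymus and lung cells in the Arid1a difference was not tested.

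The node label was checked against its defining genes, which were weak in both libraries. Hcn4 had 0.719 FPKM in the Cre library and 0.605 FPKM in the control library. Isl1, Shox2 and Tbx3 lay between 0.996 and 2.59 FPKM. Genes of the ventricle were also present, with Myl2, a ventricular myosin light chain, at 1280.2 FPKM in the Cre library and 572 FPKM in the control library. The levels below are therefore those of a dissected region that also holds working muscle.

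All 8 factors lay above equal expression in the Cre library as deposited. The ratios of Isl1 and Shox2 exceeded those of only 63.7% and 56.2% of all tested genes. Set against fibroblast and endothelial genes, Isl1 and Shox2 lay below equal expression (-0.29 and -0.42). Set against heart muscle genes, Tbx18, Isl1 and Shox2 lay below it, as did Tbx3 with a pseudocount of 1. Of the 8, 3 (Tbx1, Tbx20 and Tbx2) passed the 2-fold rule upwards and 0 downwards, where 6.08% of the 13408 genes averaging 1 FPKM or more were higher and 10.4% were lower. Among genes with a mean of 1 to 5 FPKM 10.3% were higher, and at 5 FPKM or more 4.56% were. The median log2 ratio was 0.90 for the 8 factors, 0.98 for the 6 T-box factors among them, and -0.071 for all 13408 genes. All 8 passed the minimum of 1 FPKM. The rule falls in the midst of a close group: Tbx20 at 1.01 and Tbx2 at 1.001 lay just inside it, and Tbx5 at 0.95 and Tbx3 at 0.85 just outside. Without a pseudocount 5 of 8 were at least 2-fold higher, where 9.84% of all tested genes were. The authors' deposited table called none of the 8 significant, with p-values between 0.131 and 0.952 and q-values of 0.999. These p-values compare 2 libraries and not the genotypes.

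**Figure D1:**
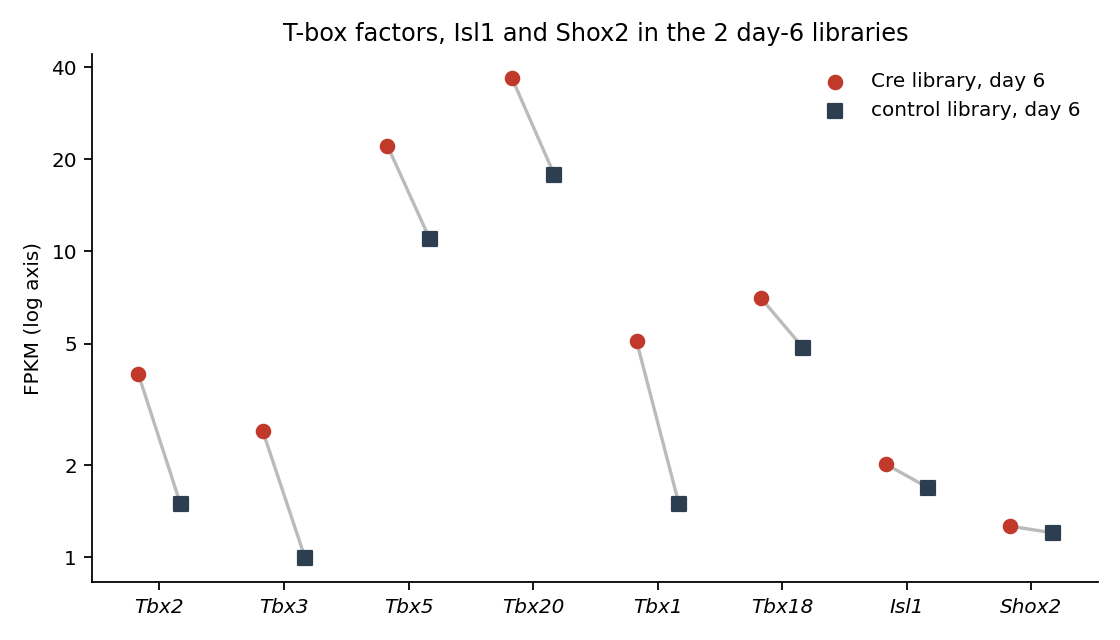
FPKM on a log axis for each factor in the Cre library (red circles) and the control library (dark squares), 1 library each and no error bars. Tbx20 (36.8 FPKM in the Cre library, 17.8 FPKM in the control library) and Tbx5 (22.2 FPKM in the Cre library, 11.0 FPKM in the control library) are the highest in both libraries, while the pairs of points for Isl1 and Shox2 lie almost level.

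The activators were the most abundant of the 8 in both libraries. Tbx20 (NM_001205085), needed for heart muscle growth and for adult heart function, lies on chromosome 9 of mm9 from 24525255 to 24578747. It had 36.8 FPKM in the Cre library and 17.8 FPKM in the control library, for a log2 ratio of 1.01. Its level stood above 87.3% of genes in the Cre library and above 70.0% of genes in the control library. Tbx5 (NM_011537), the factor mutated in human Holt-Oram syndrome, lies on chromosome 5 of mm9 from 120284671 to 120335227. It had 22.2 FPKM in the Cre library and 11.0 FPKM in the control library, for a log2 ratio of 0.95. The ratio of Tbx20 to Tbx5 was 1.66 in the Cre library and 1.62 in the control library, so the activators kept nearly the same proportion to each other.

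The repressors were weak, and both had higher values in the Cre library, although the Tbx3 ratio against heart muscle genes was -0.083 with a pseudocount of 1 and 0.36 with one of 0.1. Tbx2 (NM_009324), which marks the atrioventricular canal, lies on chromosome 11 of mm9 from 85646116 to 85655450. It had 3.99 FPKM in the Cre library and 1.49 FPKM in the control library, for a log2 ratio of 1.001. Tbx3 (NM_011535), the repressor found throughout the conduction system, lies on chromosome 5 of mm9 from 120120677 to 120134610. It had 2.59 FPKM in the Cre library and 0.996 FPKM in the control library, for a log2 ratio of 0.85. In the Cre library Tbx3 stood above Isl1 and Shox2, while it was the lowest of the 8 in the control library. The ratio of Tbx2 to Tbx3 was 1.54 in the Cre library and 1.50 in the control library. With the GENCODE transcript lengths of 3626 and 4856 bases, Tbx2 and Tbx3 correspond to about 14.5 and 12.6 fragments per 1000000 in the Cre library and to 5.41 and 4.84 in the control library, against 87.4 for Tbx5 and 66.3 for Tbx20 in the Cre library and 43.3 and 32.1 in the control library.

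The repressor to activator balance was taken as (Tbx2 + Tbx3)/(Tbx5 + Tbx20) within each library, which cancels any scaling between libraries. The repressors summed to 6.58 FPKM in the Cre library and 2.49 FPKM in the control library. The activators summed to 59.0 FPKM in the Cre library and 28.8 FPKM in the control library. The balance was 0.112 in the Cre library and 0.0865 in the control library, which is a log2 ratio of 0.37 towards the repressors, which reversed to -0.052 when 1 FPKM was added to each value. Activators thus exceeded repressors 8.97-fold in the Cre library and 11.6-fold in the control library. The same values taken as pairs gave log2 ratios of 0.37 for Tbx3 over Tbx5 and 0.37 for Tbx2 over Tbx20, which is not separate support. As a difference of mean log2(FPKM + 1), repressors minus activators, the balance was -2.81 in the Cre library and -2.75 in the control library, a change of -0.056. The direction of the balance thus depended on the pseudocount.

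**Figure D2:**
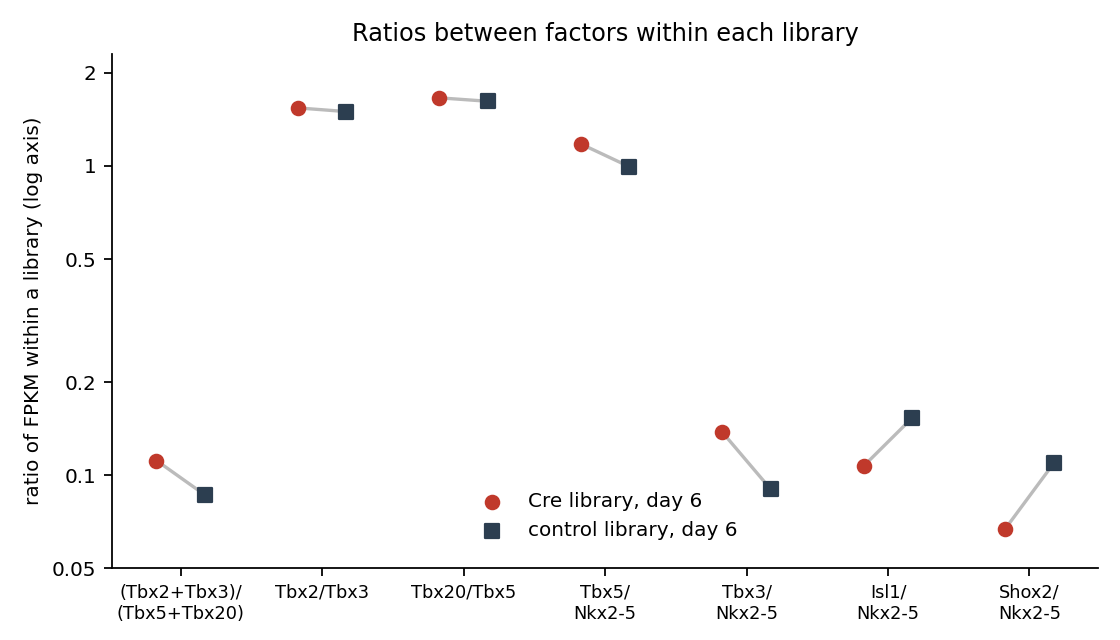
Ratios of FPKM within each library on a log axis, with the Cre library as red circles and the control library as dark squares, 1 library each. The ratios Tbx2/Tbx3 and Tbx20/Tbx5 are nearly level, Tbx3/Nkx2-5 is higher in the Cre library (0.138 there, 0.0902 in the control library), and Isl1/Nkx2-5 and Shox2/Nkx2-5 are lower in the Cre library. No pseudocount is used here. With 1 added to each FPKM, Tbx3 and Nkx2-5 had closer log2 ratios of 0.85 and 0.72, Cre over control.

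Tbx1 showed the greatest log2 ratio of the 8, except with a pseudocount of 5, where Tbx20 did. It acts in the second heart field and pharyngeal arches and is a dosage-sensitive gene of human DiGeorge syndrome. Tbx1 (NM_011532) is on mm9 chromosome 16 (18581805 to 18587062) and had 5.09 FPKM in the Cre library and 1.50 FPKM in the control library, for a log2 ratio of 1.29. Relative to Nkx2-5 it stood at 0.271 in the Cre library and 0.136 in the control library. Genes linked to Tbx1 in development had smaller ratios. Of 7 measured genes of that list 0 were at least 2-fold higher and 0 lower, with a median of 0.37 (range -0.93 to 0.53). Chrd, a Bmp antagonist, had 3.07 FPKM in the Cre library and 1.83 FPKM in the control library. Crkl, an adaptor gene that lies near human TBX1, had 8.01 FPKM in the Cre library and 16.2 FPKM in the control library, and Foxc1 had 10.9 FPKM in the Cre library and 7.78 FPKM in the control library.

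Tbx18 differed less. It marks the sinus horn progenitors that form most of the node, and also epicardium and mural cells of vessels. Tbx18 (NM_023814) is on mm9 chromosome 9 (87597634 to 87626095) and had 7.03 FPKM in the Cre library and 4.83 FPKM in the control library, for a log2 ratio of 0.46. Its ratio to Nkx2-5 was 0.373 in the Cre library and 0.437 in the control library. Lists of the other cells known to make Tbx18 differed unequally. Mural cell genes had a median log2 ratio of 0.77, with 3 of 11 higher, summing to 1351 FPKM in the Cre library and 805 FPKM in the control library. Of the 11, 10 lay above equal expression, with a range of -0.25 (Notch3) to 1.92 (Rgs5). Des, 1 of the 11, is also on the contractile list. Rgs5, a pericyte gene, had 99.3 FPKM in the Cre library and 25.4 FPKM in the control library, and Abcc9, part of the ATP-sensitive potassium channel, had 18.0 FPKM in the Cre library and 5.40 FPKM in the control library. Myh11, the smooth muscle myosin, had 61.8 FPKM in the Cre library and 27.4 FPKM in the control library. Epicardial genes had a median of 0.20, with 1 of 10 higher and 1 lower, and sums of 411 FPKM in the Cre library and 383 FPKM in the control library. Krt19 had 76.5 FPKM in the Cre library and 32.7 FPKM in the control library, and Krt8 had 50.6 FPKM in the Cre library and 102 FPKM in the control library. Wt1, which defines epicardium, had 6.98 FPKM in the Cre library and 5.13 FPKM in the control library. Their part in the Tbx18 value was not tested.

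Isl1 and Shox2 had the smallest ratios of the 8 as deposited. Isl1 (NM_021459), on chromosome 13 of mm9 from 117088477 to 117099896, had 2.02 FPKM in the Cre library and 1.69 FPKM in the control library, for a log2 ratio of 0.17. Shox2 (NM_013665), on chromosome 3 of mm9 from 66777190 to 66785693, had 1.26 FPKM in the Cre library and 1.20 FPKM in the control library, for a log2 ratio of 0.039. At transcript lengths of 2516 and 3079 bases these are 5.08 and 3.89 fragments per 1000000 in the Cre library and 4.25 and 3.71 in the control library. Their ratios to Nkx2-5 were both lower in the Cre library. Isl1 stood at 0.107 of the Nkx2-5 value in the Cre library and 0.153 in the control library, for a log2 ratio of -0.51. Shox2 stood at 0.0672 in the Cre library and 0.109 in the control library, for a log2 ratio of -0.70. Against the activators the same held, with (Isl1 + Shox2)/(Tbx5 + Tbx20) at 0.0557 in the Cre library and 0.101 in the control library. Against Tbx3, without a pseudocount, Shox2 stood at 0.488 in the Cre library and 1.21 in the control library.

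Promoters of Isl1, Shox2 and Tbx20 are given to show the start regions of the 2 homeodomain genes and of the most abundant activator. They are RefSeq sequence of GRCm38.p6, from 250 bases before the start to the last base before it, on the minus strand and 5′ to 3′, with each CpG in capitals. RefSeq start regions were matched for 5 of the 8 factors, and those of Isl1, Shox2, Tbx18 and Tbx20 begin within 1 base of the GENCODE start of the accession in the deposited table. The 2 start regions of Tbx1 begin 1930 and 3702 bases from that start, so they do not represent that transcript.
Tbx20 (chr9:24774304-24774553): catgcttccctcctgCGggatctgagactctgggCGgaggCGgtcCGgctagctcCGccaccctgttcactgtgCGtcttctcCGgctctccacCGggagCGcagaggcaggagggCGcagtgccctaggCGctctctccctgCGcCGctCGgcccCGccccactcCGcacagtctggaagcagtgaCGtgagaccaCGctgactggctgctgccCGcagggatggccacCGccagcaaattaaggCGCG
Isl1 (chr13:116309689-116309938): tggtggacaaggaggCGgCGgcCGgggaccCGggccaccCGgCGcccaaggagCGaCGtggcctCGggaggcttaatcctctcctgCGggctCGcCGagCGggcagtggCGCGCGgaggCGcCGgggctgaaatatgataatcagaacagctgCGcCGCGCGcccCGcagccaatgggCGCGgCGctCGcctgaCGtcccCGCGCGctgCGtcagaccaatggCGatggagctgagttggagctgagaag
Shox2 (chr3:66981772-66982021): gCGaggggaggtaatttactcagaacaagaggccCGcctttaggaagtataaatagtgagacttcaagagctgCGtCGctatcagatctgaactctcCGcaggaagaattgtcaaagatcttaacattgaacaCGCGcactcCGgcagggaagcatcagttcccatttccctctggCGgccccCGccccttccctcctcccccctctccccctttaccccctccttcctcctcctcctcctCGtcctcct
Isl1 held 33 CpG and Tbx20 22, and Shox2 held 11, against a median of 6.0 over 32851 start regions of the same length. GC content was 68.8% for Tbx20, 71.2% for Isl1 and 55.6% for Shox2, with a median of 52.4% over all. Letters of known sites were searched on both strands over 300 bases, from 250 before to 50 after each start, in all 5 matched genes. The T-box half-site GGTGTGA was in none of the 5 and is in 3.98% of all start regions. A site for zinc-finger factors of the GATA family, with the letters AGATAA, was in Isl1, 11 bases into the transcript, and is in 11.2% of all. TNAAGTG, an NKX site, and TAATTG, a homeodomain site, were in Tbx18 and are in 11.5% and 8% of all. Matches of letters describe the sequence and do not show binding.

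Some of the T-box genes are neighbours on the genome. Tbx3 and Tbx5 lie 150 kb apart on chromosome 5, and Tbx2 and Tbx4 lie 48.1 kb apart on chromosome 11, with 0 other genes of the table between them in either case. Tbx4, a limb and lung mesenchyme factor, had 1.09 FPKM in the Cre library and 0.134 FPKM in the control library, below the minimum mean. Of the 11 other T-box family genes 5 were in the table and 2 passed the minimum. Tbx6 had 0.739 FPKM in the Cre library and 1.65 FPKM in the control library, for a log2 ratio of -0.61. Mga, which joins a T-box with a Max-dimer domain, had 10.7 FPKM in the Cre library and 14.2 FPKM in the control library, for a log2 ratio of -0.37. Tbx15 had 0.263 FPKM in the Cre library and 0.0659 FPKM in the control library, and Tbx21, the T-bet factor of T cells, had 0.0467 FPKM in the Cre library and 0.241 FPKM in the control library. Tbx10, Tbx19, Tbx22, Eomes, Tbr1 and T were not analysed here. Both measured genes, Tbx6 and Mga, thus lay below equal expression, and Tbx4 and Tbx15, which lay above it, were under the minimum.

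Tbx2, Tbx3, Tbx4 and Tbx5 are also made in lung mesenchyme, so that tissue's genes were set beside them. Of 7 listed lung mesenchyme genes 4 passed the minimum, 0 of them were at least 2-fold higher or lower, and their median log2 ratio was 0.41. The 6 listed genes with a value summed to 43.4 FPKM in the Cre library and 37.5 FPKM in the control library. Tcf21, which is also on the epicardial list, made up most of both sums, so they say little of the other genes. Hoxa5 had 8.29 FPKM in the Cre library and 4.69 FPKM in the control library, and Wnt2 had 2.53 FPKM in the Cre library and 1.59 FPKM in the control library. Tcf21 had 28.5 FPKM in the Cre library and 29.6 FPKM in the control library. Foxf1a, under the minimum mean, had 1.42 FPKM in the Cre library and 0.426 FPKM in the control library, for a log2 ratio of 0.76. Fgf10 had 1.65 FPKM in the Cre library and 1.06 FPKM in the control library. The lung epithelial genes were higher by a median of 2.16, with Sftpc, a surfactant gene, at 90.5 FPKM in the Cre library and 0.248 FPKM in the control library. The part of lung cells in the T-box values was not tested.

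Some of the factors that act with the T-box proteins were higher. The list of cardiac factors had 15 measured genes and a median log2 ratio of 0.94. Among them 5 passed the 2-fold rule upwards and 0 downwards, and 10 lay within it, where 6.08% of all tested genes passed upwards. Nkx2-5 had 18.8 FPKM in the Cre library and 11.0 FPKM in the control library, for a log2 ratio of 0.72. Gata4, a partner of Tbx5, had 19.1 FPKM in the Cre library and 9.40 FPKM in the control library. Myocd, a coactivator of muscle genes, had 6.97 FPKM in the Cre library and 1.44 FPKM in the control library, and Irx3, an Iroquois factor of the conduction system, had 5.55 FPKM in the Cre library and 1.31 FPKM in the control library. Tead1 had 18.3 FPKM in the Cre library and 6.80 FPKM in the control library, and Irx5 had 3.69 FPKM in the Cre library and 1.14 FPKM in the control library.

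**Figure D3:**
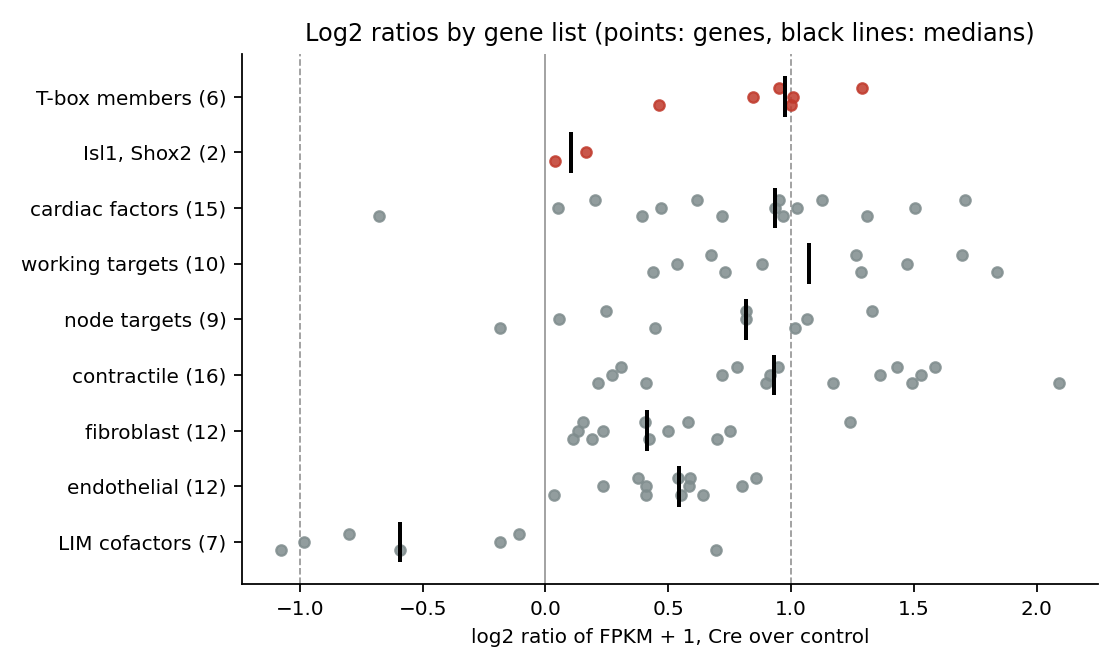
Log2 ratios of FPKM + 1, Cre over control, for each gene with a mean of at least 1 FPKM, by list, with the number of genes in brackets and black lines at the medians. Solid and dashed grey lines mark equal expression and 2-fold, and the medians are 0.98 for the 6 T-box factors, 0.94 for cardiac factors, 0.93 for contractile genes and 0.10 for Isl1 and Shox2. The T-box factors run from 0.46 to 1.29, within the wider spread of the cardiac factors (-0.68 to 1.71).

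Genes under T-box control in working muscle are activated by Tbx5 or held down by Tbx2 or Tbx3. Of 10 measured targets 5 were at least 2-fold higher, 0 were lower and 10 lay above equal expression, with a median of 1.07. Ryr2, the calcium release channel, had 67.0 FPKM in the Cre library and 18.0 FPKM in the control library, and Cacna1c, the L-type calcium channel, had 11.7 FPKM in the Cre library and 2.93 FPKM in the control library. Atp2a2, the calcium pump, had 1289 FPKM in the Cre library and 528 FPKM in the control library. The connexin gene Gja5 had 12.7 FPKM in the Cre library and 8.46 FPKM in the control library, and Gja1 had 114 FPKM in the Cre library and 71.2 FPKM in the control library, with log2 ratios of 0.54 and 0.67. Nppa is listed at 0 in the Cre library, where the authors' deposited table marks its comparison as not completed, and had 12217 FPKM in the control library. That 0 was treated as missing and is not a measured absence. Among node genes 3 of 9 were higher and 0 were lower, where 6.08% of all tested genes were higher. Their median was 0.81, or -0.11 when set against the contractile median. Popdc2 had 111 FPKM in the Cre library and 43.8 FPKM in the control library. Cacna1g, a T-type calcium channel of pacemaker cells, had 4.37 FPKM in the Cre library and 1.57 FPKM in the control library, and Kcnj5, a subunit of the acetylcholine-activated potassium channel, had 32.2 FPKM in the Cre library and 15.4 FPKM in the control library. Gjc1, a connexin of the node, had 8.87 FPKM in the Cre library and 4.61 FPKM in the control library.

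None of the measured genes upstream of Tbx2 and Tbx3 passed the 2-fold rule. Bmp signals through Smad proteins switch on Tbx2 and Tbx3 in the embryonic heart, and Msx factors join them as repressors. Of 7 measured genes of that list 0 were at least 2-fold higher or lower, with a median of 0.012 and a range of -0.22 to 0.75. Bmp10 had 218 FPKM in the Cre library and 150.0 FPKM in the control library, and the receptor Bmpr1a had 40.3 FPKM in the Cre library and 23.6 FPKM in the control library. Smad5 had 18.8 FPKM in the Cre library and 22.2 FPKM in the control library, and Smad1 had 7.57 FPKM in the Cre library and 6.74 FPKM in the control library. Listed cofactors of LIM factors such as Isl1 mostly lay on the other side, with 1 of 7 above equal expression. Their median was -0.59 over 7 measured genes, with 0 past the rule upwards and 1 downwards, and the T cell genes lay on that side too. Ssbp2 had 9.28 FPKM in the Cre library and 20.7 FPKM in the control library, and Ldb1, the core LIM-binding protein, had 29.6 FPKM in the Cre library and 59.6 FPKM in the control library. Ssbp3 had 11.3 FPKM in the Cre library and 20.3 FPKM in the control library, while Ldb2 had 4.68 FPKM in the Cre library and 2.52 FPKM in the control library. The part of T cells in these values was not tested.

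With a pseudocount of 1, Tbx2, Tbx3, Tbx5 and Tbx20 lay close to the median of heart muscle genes, as Tbx5 and Tbx20 did with a pseudocount of 0.1. The contractile list, with 7 of 16 genes higher and 0 lower, had a median of 0.93 and summed to 30112 FPKM in the Cre library and 19611 FPKM in the control library. Its log2 ratios ran from 0.21 for Myl4 to 2.09 for Ttn, so the median stands for a wide spread. Ttn, the sarcomere spring, had 43.0 FPKM in the Cre library and 9.31 FPKM in the control library. Set against this median, Tbx20, Tbx2, Tbx5 and Tbx3 had log2 ratios of 0.079, 0.072, 0.021 and -0.083, and Tbx1 had 0.36. Tbx18, Isl1 and Shox2 had -0.47, -0.76 and -0.89 on that scale. Set against the median of fibroblast and endothelial genes (0.46), Tbx20, Tbx2, Tbx5 and Tbx3 had 0.55, 0.54, 0.49 and 0.39, Tbx18 had 0.0021, and Isl1 and Shox2 had -0.29 and -0.42. The sign of the Tbx3, Tbx18, Isl1 and Shox2 ratios thus turned with the contractile centring. With a pseudocount of 0.1 in place of 1, a setting added after seeing the data, the contractile median was 0.93 and the centred ratios were 0.77 for Tbx1, 0.43 for Tbx2, 0.36 for Tbx3, 0.11 for Tbx20, 0.074 for Tbx5, -0.40 for Tbx18, -0.69 for Isl1 and -0.87 for Shox2, so the sign of Tbx3 depended on the pseudocount. With pseudocounts of 0.1 and 5, 5 and 0 of the 8 were at least 2-fold higher, where 9.41% and 1.78% of all tested genes were. With the same upper quartile in both libraries 4 of 8 were (9.67% of genes), and after scaling each library to a sum of 1000000 (TPM) 5 of 8 were (8.23%). With the fibroblast and endothelial centring 0 of 8 were (2.17%), and with the contractile centring 0 of 8 were (0.522%).

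**Figure D4:**
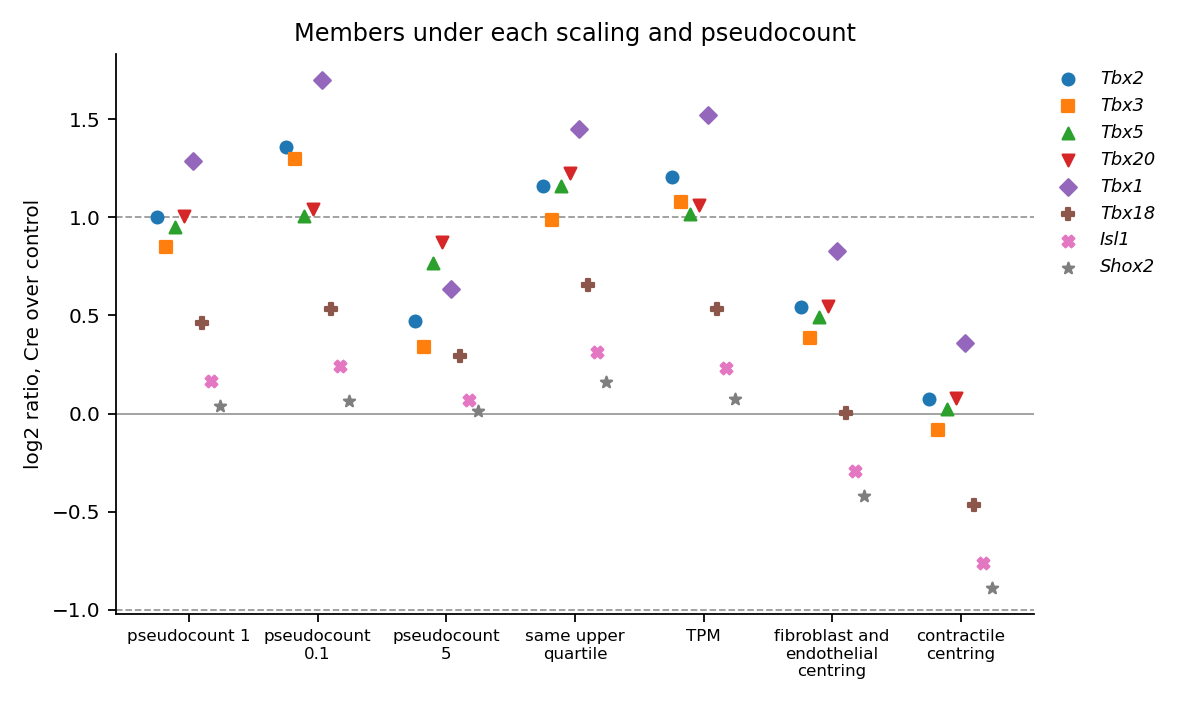
Log2 ratio, Cre over control, of each factor with a pseudocount of 1 and under 6 other pseudocounts or scalings, 1 value each, with grey lines at equal expression and 2-fold. The centrings subtract 1 value from all factors and so leave their order as with a pseudocount of 1, and the ratios of Tbx3, Tbx18, Isl1 and Shox2 change sign with the contractile centring (-0.083, -0.47, -0.76 and -0.89).

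The genes nearest to each factor were sought among 47 partner, node, target and cofactor genes, by Euclidean distance of log2(FPKM + 1) over the 2 libraries. Tbx5 lay nearest to Nkx2-5 (0.23) and Gata4 (0.29), and Tbx20 to Kcnj5 (0.27) and Gata6 (0.38). Tbx2 lay nearest to Cacna1g (0.12) and Prox1 (0.14), and Tbx1 to Irx3 (0.15) and Cacna1g (0.19). Tbx3 lay nearest to Gata5 (0.35) and Irx5 (0.40), and Tbx18 to Kcnj2 (0.19) and Gjc1 (0.30). Isl1 lay nearest to Gata5 (0.16) and Cacna1d (0.21), and Shox2 to the T-type channel gene Cacna1h (0.041) and Hcn2 (0.29). Likeness over 2 libraries reflects level as much as difference.

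The order of the levels was Tbx20, Tbx5, Tbx18, Tbx1, Tbx2, Tbx3, Isl1 and Shox2 in the Cre library. In the control library it was Tbx20, Tbx5, Tbx18, Isl1, Tbx1, Tbx2, Shox2 and Tbx3. The first 3 places were the same. Without replicates it cannot be said which neighbours differ beyond their spread, and the 5 lowest factors of the control library all lay between 0.996 and 1.69 FPKM.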

How the data were processed

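Poly-A RNA of 7 samples was sequenced, and the 2 libraries of day 6 were used, with 1 library per genotype. The 5 libraries of the time course (0, 16, 20, 24 and 48 h) were not analysed here. The submitters' processing notes name TopHat, Bowtie and Cufflinks and the build mm9. No source used here gives tool versions, the annotation or the scaling between libraries. Values of the deposited table were taken as FPKM from the column layout, per the file headers. The same rows hold the authors' deposited log2 fold change (within 1.38e-05 of the log2 of the values), a test score and p-values with q-values. FPKM shares out a library's reads, so abundant transcripts lower all other values.

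Of 15967 rows, 2 had an uncompleted comparison and were treated as missing. Small-RNA genes (32) were left out, which left 13408 genes averaging 1 FPKM or more. Log2 ratios used a pseudocount of 1. FPKM summed to 485189 in the Cre library and 497407 in the control library. No test was run. The ratio calculation was tested on simulated data. Python 3.11.15, numpy 2.4.6 and pandas 2.3.3 were used. Gene lists covered other T-box genes, cardiac factors, Isl1 and Shox2 cofactors, genes around Tbx1 and upstream of Tbx2 and Tbx3, working and node targets, contractile and ventricular genes, and markers of thymus (T cells and epithelium), lung (epithelium and mesenchyme), fibroblasts, endothelium, mural cells, epicardium and neurons. The factors and lists were chosen with earlier results of these data known. The genes named were the 8 factors, other T-box genes, up to 4 genes per list with the greatest absolute ratio, a few fixed genes and the 2 nearest genes per factor. Some genes of this rule are not reported here. A few further genes (of the marker lists) were named after their values were seen.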

Additional observations from a re-analysis of the deposited data

How the results depend on the processing

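No paired analysis was possible because each genotype had 1 library, and for the same reason no library could be left out. Labels follow the 2-fold rule and the sign. Of 56 member ratios under 7 alternatives, 30 kept both. With a pseudocount of 5, Tbx2, Tbx20 and Tbx1 fell below the rule (0.47, 0.88 and 0.64), as they did with the fibroblast and endothelial centring (0.54, 0.55 and 0.83) and the contractile centring (0.072, 0.079 and 0.36). Tbx5 passed it with a pseudocount of 0.1, the same upper quartile or TPM (1.01, 1.16 and 1.02), and Tbx3 with a pseudocount of 0.1 or TPM (1.30 and 1.08). Signs turned for Isl1 and Shox2 with the fibroblast and endothelial centring (-0.29 and -0.42), and for Tbx3, Tbx18, Isl1 and Shox2 with the contractile centring (-0.083, -0.47, -0.76 and -0.89), since a positive median is subtracted there. That centring with a pseudocount of 0.1, added after seeing the data, gave 0.43, 0.11 and 0.77 for Tbx2, Tbx20 and Tbx1 and -0.40, -0.69 and -0.87 for Tbx18, Isl1 and Shox2. The balance became -0.052 with 1 FPKM added to each value and -0.056 as a difference of means.

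Genes at least 2-fold higher numbered 815. They numbered 449 at a minimum of 5 FPKM, 1262 and 238 with pseudocounts of 0.1 and 5, 1297 with the same upper quartile, which moved the median of all genes to 0.13, and 291 and 70 with the fibroblast and contractile centrings. Genes lower numbered 1397, or 805 with a pseudocount of 5, and 3205 and 6708 with the 2 centrings. Among list medians, those that changed sign with the fibroblast and endothelial centring were genes upstream of Tbx2 and Tbx3 (-0.45), genes around Tbx1 (-0.094), lung mesenchyme (-0.054), fibroblasts (-0.047) and epicardium (-0.26). With the contractile centring they were upstream genes (-0.92), genes around Tbx1 (-0.56), node targets (-0.11), lung mesenchyme (-0.52), fibroblasts (-0.52), endothelium (-0.38), mural cells (-0.16), epicardium (-0.73) and neurons (-0.26). Genes around Tbx1 also turned at a minimum of 5 FPKM (-0.25). The unknown depth limits the weak factors Tbx3, Isl1 and Shox2 in particular, each near 1 or 2 FPKM.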

Other observations

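Marker lists not described above also differed between the libraries. Thymic epithelium genes had a median log2 ratio of -3.27 over 5 measured genes, with 4 lower and 0 higher. Their log2 ratios ran from -7.17 for Prss16 to 0.73 for Epcam. Epcam, on the other side, had 14.1 FPKM in the Cre library and 8.10 FPKM in the control library. Prss16 had 0.381 FPKM in the Cre library and 198 FPKM in the control library, and Foxn1, which specifies thymic epithelium, had 0.00596 FPKM in the Cre library and 2.34 FPKM in the control library. The T cell list had a median of -6.46. Autonomic neuron genes, of which Isl1 is also a factor during development, had a median of 0.67 over 7 measured genes, with 2 higher and 0 lower. Of the 7, 5 lay above equal expression, with a range of -0.18 (Dbh) to 2.04 (Npy). Dbh had 2.99 FPKM in the Cre library and 3.52 FPKM in the control library, and Tubb3 had 3.44 FPKM and 3.91 FPKM. With no minimum the median was 0.26. Npy had 7.06 FPKM in the Cre library and 0.963 FPKM in the control library, and Stmn2 had 8.94 FPKM in the Cre library and 3.20 FPKM in the control library. Their part in the Isl1 value was not tested.

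Ventricular genes had a median of 1.54 over 3 measured genes, all at least 2-fold higher, with Myh7 at 139.8 FPKM in the Cre library and 45.2 FPKM in the control library and Myl3 at 884 FPKM in the Cre library and 304 FPKM in the control library. Fibroblast genes had a median of 0.41, with 1 of 12 higher (Pdgfra, at 34.7 FPKM in the Cre library and 14.1 FPKM in the control library), and endothelial genes had a median of 0.55 with 0 of 12 higher or lower.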
